A study of Homo sapiens with 6 samples.

Results

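The genes described here are the components of the oxygen-sensing pathway around the hypoxia-inducible factors (HIFs), together with hypoxia-induced genes that act outside glycolysis. They were chosen by function, as a list of 32 gene symbols drawn up with results of this same comparison in view, so their counts and changes are a description and give no independent support for the list. Of these, 8 are regulators, namely the HIF subunits, the HIF hydroxylases and VHL, and 24 are targets. Of the 32, 31 had at least 1 probe set annotated to that symbol alone, out of 19775 symbols measured, and 30 passed the filter on low signals. CA9 had no such probe set and was not analysed here, and EGLN2 lay under the filter.

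Transcript levels were measured on Affymetrix arrays in 76N, a normal mammary epithelial line of human origin kept in DFCI-1 medium, with 1 array per biological replicate. Cultures received an siRNA against Ecd (n = 3 arrays) or a control siRNA (n = 3 arrays). The labels name no other treatment, and no culture under low oxygen, in either group. Ecd is the product of ECD, the human counterpart of the fly gene ecdysoneless. All cultures were of 1 cell line, ECD was lowered and not removed, and neither the siRNA sequences nor their dose or the harvest time is given in the sources used here. The comparison asks which of these transcripts differ after Ecd siRNA relative to control siRNA.

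In well-oxygenated cells the prolyl hydroxylases of the EGLN family modify the alpha subunits encoded by HIF1A and EPAS1, and the VHL protein then recognises the modified subunits and targets them for degradation. The asparaginyl hydroxylase encoded by HIF1AN blocks their contact with coactivators. When oxygen is scarce, the alpha subunits persist, pair with the ARNT protein and bind a short core sequence near target genes. Alpha subunits are therefore controlled largely at the protein level, which these arrays do not measure. Several hypoxia-induced genes, among them EGLN1 and EGLN3, encode proteins that act back on the pathway.

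The labels and arrays were checked first. ECD had signals of 588.9, 599.8 and 542.5 in the Ecd siRNA arrays, against 1076.6, 1011.4 and 1007.2 in the control siRNA arrays, so that 55.9% of the control mean remained (log2 change -0.82, SE 0.096, limma adjusted p = 0.000172; exact two-sided permutation p = 0.1, the smallest that 3 against 3 arrays allow). Across tested genes, log2 signals correlated at 0.977 to 0.981 within a group and at 0.952 to 0.961 between groups, and the ratios of 3′ to 5′ GAPDH signal were 0.974 to 1.003 over the 6 arrays. Of 8 mammary epithelial markers 6 had a probe set and all 6 were above the filter, with summed signals of 56031.8 to 61171.4 in Ecd siRNA arrays and 55002.7 to 59878.2 in control arrays. Among these 6, CDH1 rose (log2 change 0.25, limma adjusted p = 0.00935), KRT18 fell (-0.53, adjusted p = 0.00187), and KRT5, KRT14, KRT8 and EPCAM did not pass. The summed signal of 10 fibroblast markers was 7054.9 to 7907.3 in Ecd siRNA arrays and 4174.5 to 4779.0 in control arrays. Most of that difference was FAP, which averaged 5334.2 in Ecd siRNA arrays and 2609.6 in control arrays. FAP (log2 change 1.03) and COL1A1 (0.53) rose, and the other 3 above the filter did not pass. COL3A1, LUM, PDGFRA, PDGFRB and POSTN were under the filter. The part of these differences in the results below was not tested. Of the adipocyte and endothelial markers 2 and 3 were bright enough to be tested and did not pass, and of the immune markers 0 were. ADIPOQ, PLIN1, CDH5, VWF, PTPRC and CD3E were under the filter.

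Hypoxia targets were higher in the Ecd siRNA cultures as a group, while most of the genes that control HIF did not pass the threshold. Among 23 tested targets there were 19 rises and 0 falls, 4 did not pass, and the median log2 change was 0.64 (Ecd siRNA minus control siRNA, on log2(signal + 16)). Of 7 tested regulators 2 rose, EGLN1 and EGLN3, 0 fell and the other 5 did not pass, and the median was 0.16. Across all 14603 tested genes 10.1% were called higher and 11.0% lower, and the median change was 0.008. A call means an adjusted p under 0.05 in a limma fit over all tested genes, and "rose" and "fell" below are used only of called genes. Because bulk RNA was measured, fewer cells expressing a transcript and less of it per cell cannot be told apart.

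Targets were mostly bright. Their mean signals over the 6 arrays ran from 280.4 to 11088.1, with a median of 4427.1. Of the 21 targets with a mean signal of 1000 or more, 17 rose, where 17.0% of all tested genes that bright were called higher. In 20 of the 23 targets the lowest Ecd siRNA array lay above the highest control array, as in 18.1% of all tested genes, and in 4 of the 7 regulators. Over the targets, the median log2 signal relative to the control mean was 0.64, 0.66 and 0.61 in the 3 Ecd siRNA arrays, against 0.005, 0.016 and 0.003 in the 3 control arrays. The 3 Ecd siRNA arrays lay close together. Control values lie near 0 because each gene was set against the mean of the same control arrays. The targets were listed with this comparison in view, so the distance between the groups is a description only. When each gene was instead read as the mean of all its probe sets, dim ones included, 13 targets were called, and the calls of ANKRD37, KDM3A, KDM4B, P4HA1, P4HA2, BHLHE41 and PPP1R3C were lost. The signal of 1000 was set after the values were seen.

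**Figure D1:**
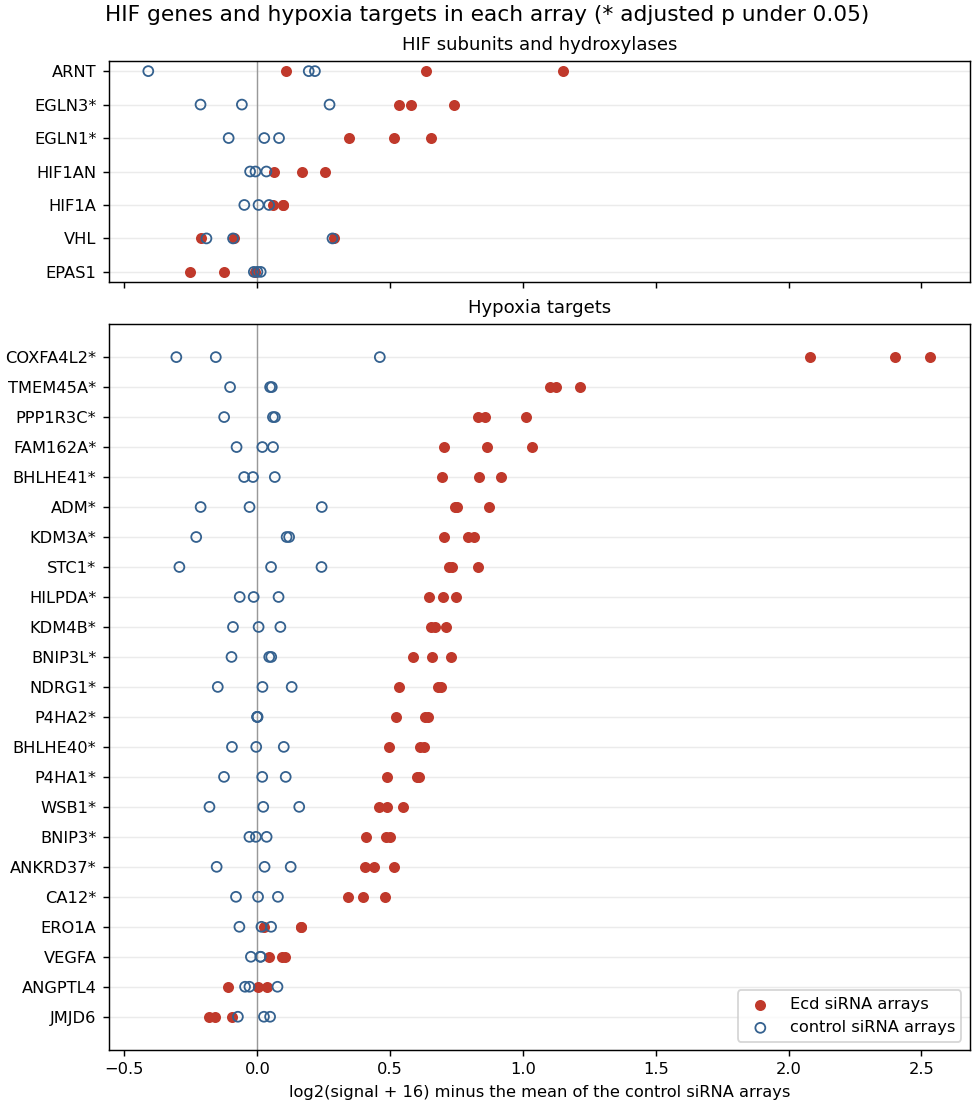
Each row is a gene read by its brightest probe set, and the horizontal axis gives log2(signal + 16) of each array minus the mean of the 3 control siRNA arrays, with filled points for Ecd siRNA and open points for control siRNA. Among the targets the Ecd siRNA points of 19 starred genes lie to the right of all control points. The targets VEGFA, ANGPTL4 and JMJD6, and HIF1A among the regulators, lie near 0. The groups of HIF1A, VEGFA and JMJD6 do not overlap either, but their changes are small.

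The alpha subunit transcripts were among those that did not pass. HIF1A, the widely expressed alpha subunit gene, had signals of 13325.1, 12990.4 and 13340.7 in Ecd siRNA arrays and 12853.9, 12504.7 and 12048.1 in control arrays. The groups did not overlap, but the log2 change was 0.085 with a 95% interval of -0.038 to 0.21 (limma adjusted p = 0.336). A rise as large as the median of the targets lies outside that interval. HIF1A had only 1 probe set, and whether changes are compressed at such high signals was not tested. EPAS1, which encodes the second alpha subunit, had signals of 4980.8, 4593.2 and 4197.6 in Ecd siRNA arrays and 5012.5, 5055.5 and 4965.7 in control arrays. Its log2 change was -0.13, with an interval of -0.29 to 0.035 (adjusted p = 0.266). The highest Ecd siRNA array of EPAS1 lay inside the range of the controls, and its second probe set above the filter was at -0.30 and did not pass.

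ARNT, the gene of the shared beta subunit, did not pass. The signals of its brightest probe set were 949.9, 660.1 and 453.3 in Ecd siRNA arrays and 481.6, 489.7 and 311.4 in control arrays, so the groups overlapped. The log2 change was 0.63 with an interval of 0.078 to 1.19, and the adjusted p was 0.104. All 5 ARNT probe sets above the filter had a positive change, between 0.40 and 0.87, and 0 of them passed the threshold when every probe set was tested on its own. The gene passed without Ecd siRNA replicate 3 (0.89, limma adjusted p = 0.0204) and when read by its brightest probe set without _s or _x in its name (0.40, adjusted p = 0.0438). The change was 0.37 without Ecd siRNA replicate 1 (adjusted p = 0.318) and 0.43 without control replicate 3 (adjusted p = 0.301), so single arrays moved its size in both directions.

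Among the genes that restrain HIF, both tested prolyl hydroxylase genes rose. EGLN1, which encodes the main oxygen-sensing prolyl hydroxylase, had signals of 3303.7, 2934.4 and 3641.4 in Ecd siRNA arrays, against 2444.8, 2141.8 and 2351.8 in control arrays, a log2 change of 0.50 (SE 0.093, limma adjusted p = 0.0031). Its 2 other probe sets above the filter were at 0.25 and 0.23 and did not pass on their own. EGLN3, a prolyl hydroxylase gene that is itself hypoxia-inducible, had 423.1, 491.4 and 436.9 in Ecd siRNA arrays, against 275.4, 350.3 and 245.6 in control arrays (log2 change 0.62, SE 0.15, adjusted p = 0.0169). Its second probe set changed by 0.66 and was called as well. The EGLN3 call was lost without Ecd siRNA replicate 2 (adjusted p = 0.0671), without control replicate 1 (0.057) and without control replicate 3 (0.0561), with changes of 0.56, 0.59 and 0.51, so 1 regulator was called in those 3 fits. The third hydroxylase gene, EGLN2, was listed at 7.5, 12.7 and 10.9 in Ecd siRNA arrays and 21.8, 8.8 and 19.0 in control arrays, under the filter signal of 84.6.

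The asparaginyl hydroxylase gene HIF1AN averaged 1540.0 ± 102.8 in Ecd siRNA arrays and 1374.2 ± 30.2 in control arrays (SD, n = 3 each), a log2 change of 0.16 with an interval of -0.024 to 0.35 (adjusted p = 0.219). VHL, the substrate receptor of the ubiquitin ligase that removes HIF alpha, averaged 731.6 ± 139.3 in Ecd siRNA arrays and 732.4 ± 134.4 in control arrays, with a log2 change of -0.003 and an interval of -0.36 to 0.35 (adjusted p = 0.994). The groups of VHL overlapped, and those of HIF1AN did not overlap.

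The HIF core sequence was looked for near the start of each member, because the targets moved together and the pathway binds DNA there. The core was searched as ACGTG or GCGTG and, for the other strand, as CACGT or CACGC, counting overlapping matches, in the 250 bases before the gene start of the RefSeq promoter table (GRCh38.p14). Of the 32 members 25 matched the table by symbol, 7 regulators and 18 targets. The core was present in 16 of the 18 targets (88.9%), in 4 of the 7 regulators (57.1%), in 54.2% of the 11704 tested genes in the table and in 43.1% of all 27305 of its genes. Windows of the targets were also richer in G and C than those of tested genes (median 68.6% against 64%), and the core holds a CG pair. Regulator windows were richer still, with a median of 75.6%. Of the 15 called targets 13 had it, and so did both matched targets that did not pass, ANGPTL4 and ERO1A. The targets were listed as hypoxia-induced genes, so a high share with the core can follow from that choice alone. The share therefore does not bear on the change after Ecd siRNA. A match is a string of letters in a window, and binding was not measured. The window and the genes shown were chosen after the values were seen.

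Windows are shown for the targets with the largest rises, COXFA4L2 and TMEM45A, for FAM162A and BNIP3, which have several matches, and for ERO1A as a target whose brightest probe set was not called. Each is written 5′ to 3′ in the direction of the gene, with the core in capitals. They lie at chr12:57240763-57241012 on the minus strand (COXFA4L2), chr3:100492369-100492618 on the plus strand (TMEM45A), chr3:122383932-122384181 on the plus strand (FAM162A), chr10:131981924-131982173 on the minus strand (BNIP3) and chr14:52695559-52695808 on the minus strand (ERO1A).
COXFA4L2: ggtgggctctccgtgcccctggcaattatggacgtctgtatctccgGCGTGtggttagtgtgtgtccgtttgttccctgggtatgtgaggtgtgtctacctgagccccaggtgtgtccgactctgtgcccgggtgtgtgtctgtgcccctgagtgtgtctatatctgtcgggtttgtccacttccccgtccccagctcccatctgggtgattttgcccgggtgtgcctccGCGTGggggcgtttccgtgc
TMEM45A: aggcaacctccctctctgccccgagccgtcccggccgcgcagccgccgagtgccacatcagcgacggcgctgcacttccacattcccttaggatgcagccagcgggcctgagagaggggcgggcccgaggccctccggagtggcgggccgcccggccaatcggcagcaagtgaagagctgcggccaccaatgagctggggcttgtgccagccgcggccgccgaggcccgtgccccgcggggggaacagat
FAM162A: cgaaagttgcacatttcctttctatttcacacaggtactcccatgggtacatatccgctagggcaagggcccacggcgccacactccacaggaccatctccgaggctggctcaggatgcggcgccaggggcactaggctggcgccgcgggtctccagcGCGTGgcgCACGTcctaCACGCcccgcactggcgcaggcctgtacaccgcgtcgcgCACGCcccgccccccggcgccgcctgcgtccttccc
BNIP3: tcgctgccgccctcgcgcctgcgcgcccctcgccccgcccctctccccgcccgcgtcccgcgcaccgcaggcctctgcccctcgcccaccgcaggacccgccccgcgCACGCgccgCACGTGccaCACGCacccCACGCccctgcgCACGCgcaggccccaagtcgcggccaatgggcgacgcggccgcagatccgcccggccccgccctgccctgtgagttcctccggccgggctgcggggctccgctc
ERO1A: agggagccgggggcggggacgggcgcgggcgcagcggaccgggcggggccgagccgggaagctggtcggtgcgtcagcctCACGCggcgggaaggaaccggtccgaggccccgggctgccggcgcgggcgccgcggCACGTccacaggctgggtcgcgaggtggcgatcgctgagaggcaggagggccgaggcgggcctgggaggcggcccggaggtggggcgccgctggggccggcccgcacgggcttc

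COXFA4L2 has 2 cores in this window, the nearer of them starting 20 bases before the gene start, and TMEM45A has 0. FAM162A has 4, BNIP3 has 6, counting its CACGTG once on each strand, and ERO1A has 2. TMEM45A with 0 cores changed by 1.15 and BNIP3 with 6 by 0.47. Whether the number of cores goes with the change over all targets was not tested.

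Targets that act in mitochondria all rose. COXFA4L2, formerly NDUFA4L2, encodes a mitochondrial subunit that lowers respiratory activity in hypoxia. Its signals were 716.4, 986.9 and 897.3 in Ecd siRNA arrays, against 139.4, 222.4 and 124.2 in control arrays, a ratio of means of 5.35 and a log2 change of 2.34 (SE 0.21, limma adjusted p = 2.36e-05). It made the largest change of the members, from control signals not far above the filter, and its log2 change was 2.06 with a pseudocount of 64 and 2.45 with a pseudocount of 1. FAM162A, which encodes a mitochondrial protein linked to hypoxic cell death, had 9444.9, 8392.2 and 7500.9 in Ecd siRNA arrays, against 4799.1, 4666.5 and 4362.0 in control arrays (log2 change 0.87, SE 0.086). Of its 5 probe sets above the filter 4 were called, between 0.87 and 1.25, and the fifth was at 0.11 and was not. Probe sets ending in _x_at, as 3 of these do, can bind other transcripts too.

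BNIP3 and BNIP3L encode related receptors that mark mitochondria for autophagy. BNIP3 had signals of 9117.7, 8653.6 and 9208.4 in Ecd siRNA arrays, against 6666.9, 6373.5 and 6482.6 in control arrays (log2 change 0.47, SE 0.059, limma adjusted p = 0.000309). BNIP3L had 6922.0, 7270.8 and 7643.8 in Ecd siRNA arrays, against 4745.6, 4299.4 and 4770.6 in control arrays (log2 change 0.66, SE 0.07). In both genes the Ecd siRNA arrays lay wholly above the controls, and their second probe sets were called too, at 0.76 for BNIP3 and 0.73 for BNIP3L.

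Targets that encode secreted factors went apart. ADM, the gene of the vasodilator peptide adrenomedullin, had signals of 4356.8, 4767.9 and 4386.9 in Ecd siRNA arrays, against 2545.0, 2238.3 and 3076.4 in control arrays (log2 change 0.79, SE 0.11, limma adjusted p = 0.000467). STC1, which encodes the glycoprotein hormone stanniocalcin, had 3456.0, 3486.5 and 3727.2 in Ecd siRNA arrays, against 2167.8, 1703.3 and 2475.0 in control arrays (log2 change 0.76, SE 0.12). All 3 STC1 probe sets were called, between 0.39 and 0.99.

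VEGFA, the gene of the main angiogenic growth factor and a standard HIF target, did not pass. Its signals were 5274.9, 5321.6 and 5098.8 in Ecd siRNA arrays and 4864.5, 4989.1 and 4988.7 in control arrays. The Ecd siRNA arrays were all higher, but by a log2 change of 0.08 with an interval of -0.054 to 0.21 (limma adjusted p = 0.414), which does not reach the smallest rise among the called targets. Its 4 probe sets were at 0.02 to 0.37 and 0 of them was called. ANGPTL4, which encodes an inhibitor of lipoprotein lipase, averaged 4166.0 ± 223.5 in Ecd siRNA arrays and 4234.9 ± 197.6 in control arrays (SD, n = 3 each), a change of -0.024 with an interval of -0.18 to 0.13, and its second probe set was at -0.16 and not called.

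**Figure D2:**
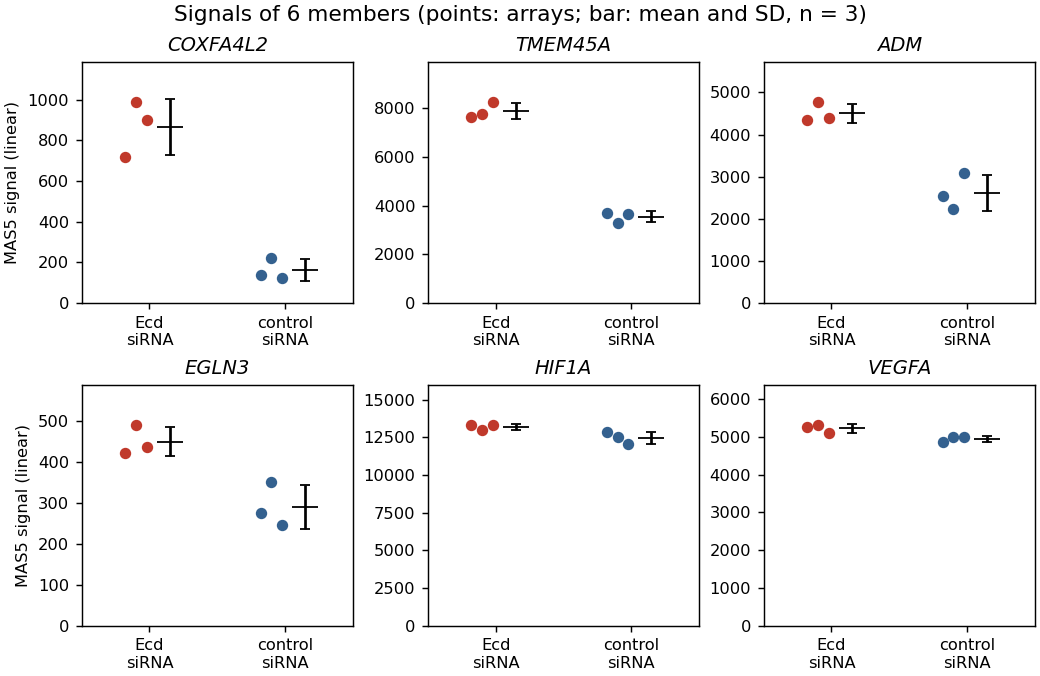
Each panel gives the linear MAS5 signal of 1 gene, with points for the 3 Ecd siRNA arrays on the left and the 3 control siRNA arrays on the right, and the mean and SD beside them. The groups stand clear of each other in COXFA4L2, TMEM45A, ADM and EGLN3, while HIF1A and VEGFA differ by a ratio of means of 1.06.

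Among the targets, 5 encode oxygen-dependent dioxygenases, enzymes of the same class as the HIF hydroxylases. Of these 5, 4 rose, where 10.1% of all tested genes were called higher. The HIF hydroxylase genes are counted with the regulators, where EGLN1 and EGLN3 rose and HIF1AN did not pass. All 4 calls were lost when each gene was read as the mean of its probe sets (limma adjusted p of 0.0642 to 0.309). KDM3A encodes a demethylase of histone H3, and it had signals of 2246.3, 2076.9 and 2213.2 in Ecd siRNA arrays, against 1380.6, 1080.0 and 1371.6 in control arrays (log2 change 0.77, SE 0.10). KDM4B encodes another histone demethylase, and it had 2365.7, 2343.3 and 2437.5 in Ecd siRNA arrays, against 1487.7, 1390.4 and 1575.5 in control arrays (log2 change 0.68, SE 0.078, limma adjusted p = 0.000165). Of the 6 KDM4B probe sets above the filter 4 were called higher, and the other 2 were at 0.26 and -0.09 and were not.

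P4HA1 and P4HA2 encode the catalytic subunits of collagen prolyl hydroxylase. P4HA1 had signals of 5407.5, 5004.0 and 5436.0 in Ecd siRNA arrays, against 3839.1, 3610.1 and 3265.9 in control arrays (log2 change 0.56, SE 0.077). P4HA2 had 7696.6, 7626.1 and 7079.7 in Ecd siRNA arrays, against 4924.2, 4920.3 and 4918.2 in control arrays (log2 change 0.60, SE 0.062), and its second probe set above the filter was called at 0.64. JMJD6, a further dioxygenase gene, was the one of the 5 that did not rise. It averaged 1122.7 ± 35.3 in Ecd siRNA arrays and 1243.9 ± 55.6 in control arrays (SD, n = 3 each), with the Ecd siRNA arrays wholly below the controls, a change of -0.14 and an interval of -0.33 to 0.041 (limma adjusted p = 0.272).

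Both transcriptional repressors on the list rose. BHLHE40 had signals of 6477.9, 6405.1 and 5905.0 in Ecd siRNA arrays, against 3916.8, 4486.2 and 4173.9 in control arrays (log2 change 0.58, SE 0.073), and its second probe set was called at 0.52. BHLHE41 had 10261.0, 8795.2 and 9685.8 in Ecd siRNA arrays, against 5359.1, 5236.8 and 5674.1 in control arrays (log2 change 0.82, SE 0.072, limma adjusted p = 2.36e-05). They encode related helix-loop-helix proteins of the circadian clock. The 2 other BHLHE41 probe sets above the filter were at 0.37 and 0.44 and were not called.

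CA12, HILPDA and PPP1R3C rose. CA12 encodes a membrane carbonic anhydrase, and it had signals of 9490.9, 8964.8 and 8622.7 in Ecd siRNA arrays, against 6432.8, 7178.5 and 6815.1 in control arrays (log2 change 0.41, SE 0.067). Of its 7 probe sets 5 were called, between 0.39 and 0.55. The other 2, with control means of 305.1 and 144.6, were at 0.017 and 0.363 and were not called. HILPDA, the gene of a lipid droplet protein, had 1403.0, 1453.8 and 1506.0 in Ecd siRNA arrays, against 941.8, 849.5 and 881.6 in control arrays (log2 change 0.70, SE 0.086). PPP1R3C, which encodes a subunit that directs a phosphatase to glycogen, had 400.7, 357.8 and 351.2 in Ecd siRNA arrays, against 200.2, 199.1 and 173.4 in control arrays (log2 change 0.90, SE 0.15). In all 3 genes the groups did not overlap.

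The remaining targets rose except ERO1A. TMEM45A, a transmembrane protein gene, had signals of 7642.7, 7758.5 and 8250.6 in Ecd siRNA arrays, against 3685.5, 3303.7 and 3669.2 in control arrays, a ratio of means of 2.22 and the smallest adjusted p of the members (log2 change 1.15, SE 0.07, limma adjusted p = 1.84e-06). NDRG1, a stress-responsive gene long used as a hypoxia marker, had 14005.7, 13902.3 and 12542.7 in Ecd siRNA arrays, against 7814.7, 8783.4 and 9480.0 in control arrays (log2 change 0.64, SE 0.08). ANKRD37, an ankyrin repeat gene, had 1175.4, 1239.6 and 1148.1 in Ecd siRNA arrays, against 879.6, 942.7 and 774.3 in control arrays (log2 change 0.45, SE 0.099). WSB1 encodes a substrate receptor of a ubiquitin ligase. Its signals were 3151.7, 3085.5 and 3286.8 in Ecd siRNA arrays, against 1977.5, 2503.5 and 2277.8 in control arrays (log2 change 0.50, SE 0.091), and 4 of its 5 probe sets were called, between 0.49 and 0.81. The fifth, which is the only one without _s in its name, was dim and at -0.05.

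ERO1A, which encodes the oxidase that forms disulphide bonds in the endoplasmic reticulum, depended on the probe set. Its brightest probe set averaged 7504.9 ± 417.3 in Ecd siRNA arrays and 6911.9 ± 291.4 in control arrays (SD, n = 3 each), with overlapping groups and a change of 0.12 (limma adjusted p = 0.262). Its 2 others changed by 0.51 (adjusted p = 0.00254) and 0.425 (adjusted p = 0.0247) and were called. What separates these probe sets was not tested.

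**Figure D3:**
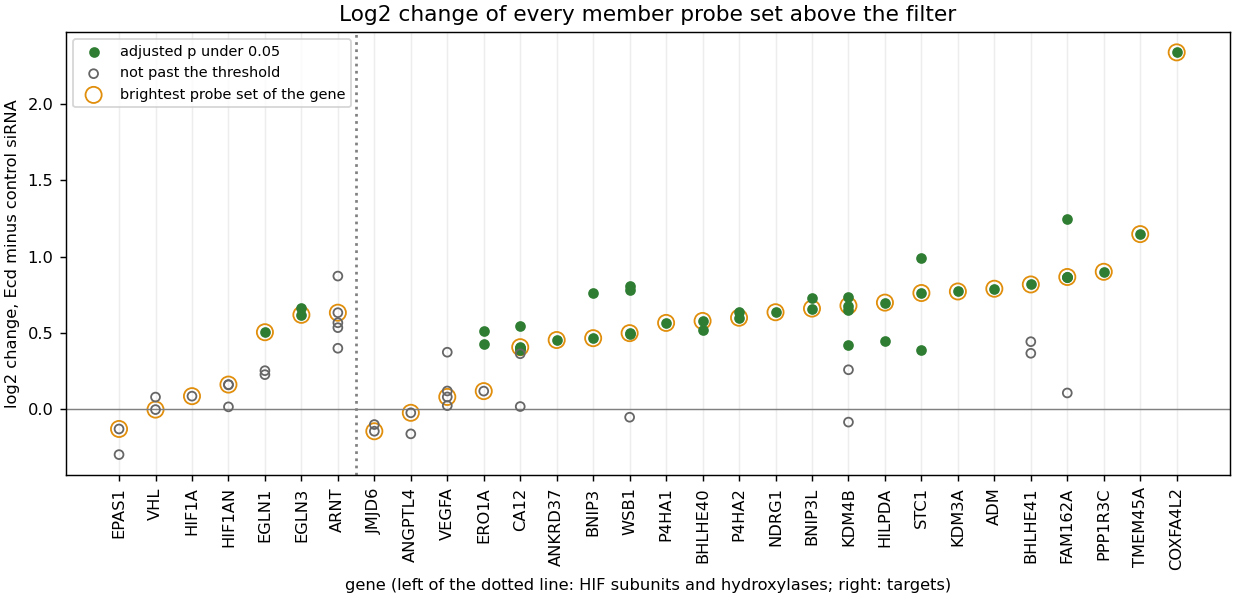
Each point is 1 member probe set above the filter, placed by gene along the horizontal axis and by its log2 change, Ecd siRNA minus control siRNA, on the vertical axis; filled points passed an adjusted p of 0.05 and orange rings mark the brightest probe set of a gene. Called points all lie above 0, and several genes hold both called and uncalled probe sets.

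Every probe set was also tested on its own. Of 68 target probe sets 58 were above the filter, and of these 41 were called higher, 0 lower and 17 were not called, where 8.30% of all 27009 tested probe sets were called higher. Of 23 regulator probe sets 18 were above the filter, 3 were called higher and 0 lower. Among the 15 targets with 2 or more probe sets above the filter, 6 were called higher by all of them, 6 by some and 3 by none. The 3 were VEGFA, ANGPTL4 and JMJD6. Probe sets of a gene share its transcripts and are not replicates.

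Other genes of the pathway were read from 3 further lists. Among 16 tested genes for HIF partners there were 3 rises and 1 fall, and the median was -0.02, where 10.1% of all tested genes were called higher and 11.0% lower; these shares are the background for the other lists too. CITED2, which encodes a protein that competes with HIF for its coactivators and is hypoxia-inducible, averaged 2604.5 ± 300.5 in Ecd siRNA arrays and 1431.2 ± 133.5 in control arrays (SD, n = 3 each; log2 change 0.85). The related CITED4 averaged 776.2 ± 168.1 in Ecd siRNA arrays and 1374.4 ± 164.0 in control arrays and fell by 0.83 on the log2 scale. OS9 (0.60) rose, and SIAH1 (0.31, limma adjusted p = 0.022), a ubiquitin ligase gene that acts on the EGLN proteins, lost its call on leaving out Ecd siRNA replicate 1 or any 1 control array (0.0588 to 0.0648), without the intensity trend (0.0646), with a common median (0.137) and when its probe sets were averaged (0.11, adjusted p = 0.682). The coactivator genes EP300 and CREBBP did not pass, at 0.19 and 0.15 (both named after their values were seen).

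Hypoxia genes outside the member list also rose in part. Of 27 tested non-glycolytic genes written as a further hypoxia list, 18 rose and 2 fell, and the median was 0.44. IGFBP3, which encodes a binding protein of insulin-like growth factors, averaged 4058.5 ± 686.5 in Ecd siRNA arrays and 1005.5 ± 117.9 in control arrays (log2 change 1.99). LOX, a collagen cross-linking enzyme gene, changed by 1.38, the MYC antagonist gene MXI1 by 0.75 and the lysyl hydroxylase gene PLOD1 by 0.78. The 2 that fell, named after their values were seen, were HMOX1 (-0.51), the haem oxygenase gene, and TGFA (-0.53), a growth factor gene. Of 21 tested glycolytic hypoxia genes 6 rose and 0 fell, and the median was 0.14. PFKFB4 (1.99), ENO2 (2.62), PFKFB3 (0.85) and SLC2A1 (0.81) were among the 6. Control signals of ENO2 were 70.3, 76.3 and 156.1, close to the filter signal of 84.6. Its change ran from 2.188 to 2.937 over the alternatives. PGK1 (0.115), LDHA (0.03) and PDK1 (0.02), standard glycolytic HIF targets named after their values were seen, did not pass. LDHA and PGK1 averaged 19709.2 and 14935.1 in control arrays, where the highest signals of the arrays were 24572.8 to 27986.8. Whether changes are compressed at such high signals was not tested. Differences between the lists were not tested.

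**Figure D4:**
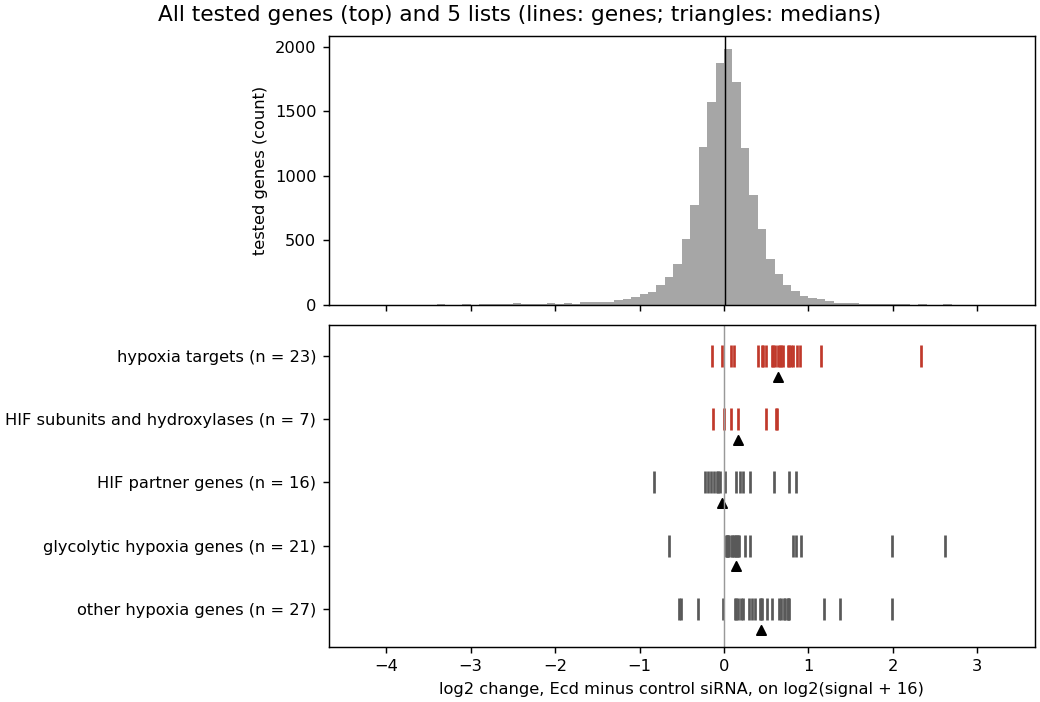
The upper panel is a histogram of the log2 change, Ecd siRNA minus control siRNA, of all 14603 tested genes, and the lower panel marks each gene of 5 lists with a line and each list's median with a triangle on the same axis. The median of the 23 hypoxia targets is at 0.64 and that of the 27 other hypoxia genes at 0.44, against 0.16 for the 7 regulators and 0.14 for the 21 glycolytic genes.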

How the data were processed

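The authors deposited linear intensities, 1 for each probe set and array, which the submitters' processing notes name as MAS5 signals without a version or scaling target. The table held 54675 probe sets on 6 arrays, with array medians of 128.7 to 147.6. Its trimmed mean was 499.94 on every array, so a shift common to all transcripts is invisible. The number of arrays limits the precision.

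Probe sets with 1 symbol in GEO's platform annotation (41091) were used. A gene was read by the probe set with the highest mean log2(signal + 16), if in the upper 60% (a signal of 84.6), leaving 14603 genes. Averaging linear signals for this filter was tried first and dropped for the log2 mean. Fold changes of dim transcripts are understated. The change, Ecd siRNA minus control siRNA, was fitted in limma 3.58.1 under R 4.3.3 (lmFit, eBayes with trend, no covariates), with Benjamini-Hochberg adjustment over all tested genes and a threshold of 0.05. The fit was tested on simulated data, where the share of changed genes recovered fell short of the preset mark with raw residual noise and passed it only after the simulated noise was set to limma's moderated SDs. Intervals are 95% from the fit. Replicates are labelled biological, and whether they came from separate transfections is not stated.

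All members were named, and of each further list up to 4 called genes with the smallest adjusted p. Other genes named say so. The members and lists were chosen with earlier results of these data known. Alternatives changed the pseudocount (1 and 64), normalization (quantile; common median), filter (none; upper 40%), choice of probe set (their mean; those without _s or _x; each tested alone), limma settings (no trend; array weights), a replicate block, and left out each array. Promoter windows come from RefSeq GRCh38.p14. CA9, KRT17, TP63 and other listed genes lacking a single-symbol probe set were not analysed here.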

Additional observations from a re-analysis of the deposited data

How the results depend on the processing

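The number of hypoxia targets called higher was 19 in each of the 6 fits that left out 1 array and 13 with the mean of the probe sets, which takes in dim probe sets under the filter. Calls lost with that mean were those of ANKRD37, KDM3A, KDM4B, P4HA1, P4HA2, BHLHE41 and PPP1R3C (adjusted p of 0.0642 to 0.395), and ERO1A gained one (0.35, adjusted p = 0.00933), as it did when names without _s or _x were preferred (0.425, adjusted p = 0.0174). The targets' median was 0.592 with quantile normalization, 0.509 with the mean of the probe sets, 0.599 with names lacking _s and _x preferred and 0.66 with array weights, and 0.607 to 0.685 leaving out 1 array. The number of regulators called higher was 1 to 3 leaving out 1 array. WSB1 was at -0.053 in its one probe set of that kind (adjusted p = 0.932). In every fit run 0 targets and 0 regulators were called lower. Of 540 member values under the alternatives, 524 kept their direction where called and their side of the threshold. A further 10 lost a call but kept their sign, 5 gained a call, and 1, that of WSB1, lost its call and changed sign. VHL and ANGPTL4, which were not called and lay near 0, also took the other sign in some fits (VHL up to 0.139, ANGPTL4 up to 0.02). The number of all genes called ran from 2203 to 3301 over the alternatives, against 3075.

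Same-numbered arrays did not deviate together in every pair (r of -0.009, 0.079 and 0.152), and not every array correlated best with its own number. With the replicate block, 19 targets and 3 regulators were called higher, ARNT among them (0.63, adjusted p = 0.00909). The number of arrays limits the detection of small changes, and dim signals such as those of EGLN2 cannot be read.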
